A study of Mus musculus with 12 samples.

Results

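The genes described here supply cysteine, make and use glutathione, run the thioredoxin system and remove peroxide and superoxide. They are 50 genes chosen by symbol for these roles, among 52336 genes in the deposited table, and all 50 were matched to an identifier. Of these, 47 reached a mean of at least 10 normalized reads over the libraries and were tested, among 14996 genes tested in all. Cbs, Cth and Mt2 did not.

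RNA sequencing had been done on 12 libraries of cardiomyocytes from wild type mouse pups, with 3 libraries in each of 4 groups. Pups had been injected on postnatal days 0 to 1 with a high dose of N-acetylcysteine (NAC), which releases cysteine, or with saline, per the labels. Saline buffered with HEPES (25 mM HEPES, 140 mM NaCl), in which the NAC was given, is named for all 12 libraries. On day 2 a coronary artery, the left anterior descending, was occluded to cause myocardial infarction (MI), or surgery was a sham, and on day 3 cells were taken. The groups were thus saline with sham surgery (saline sham), NAC with sham surgery (NAC sham), saline with infarction (saline MI) and NAC with infarction (NAC MI). All groups shared the enzymatic digestion of pooled ventricles, the selection with an isolation kit for neonatal cardiomyocytes and the enrichment of poly-A RNA. The tissue was called left ventricular in the sample labels and whole ventricular in the series text. The comparisons show which genes of the defence differed with infarction and with NAC, and whether NAC changed the response to infarction.

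Glutathione is built from cysteine, which reaches cells partly as cystine through the exchanger of Slc7a11 and Slc3a2. The ligase of Gclc and Gclm carries out the first step and Gss the second, and Gsr reduces oxidised glutathione again. Glutathione peroxidases and transferases spend glutathione on peroxides and reactive compounds, while thioredoxins, peroxiredoxins and glutaredoxins reduce disulfides and peroxides in parallel. Heart muscle is rich in mitochondria. Many of the genes are known targets of the transcription factor NRF2, which binds antioxidant response elements, and metallothioneins are driven by metal response elements.

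The stretches below are shown because they match the short cores that these routes of control are known to use. Whether these stretches are used was not tested. They come from the RefSeq windows of GRCm38.p6, from 250 bases before to 50 bases after an annotated start. Windows were found for 42 of the 50 members. Both strands were searched for the antioxidant response core TGACNNNGC and for the metal response core, TGCACNC or TGCGCNC. Capitals mark the core, and each sequence is written 5′ to 3′ on the strand of the match.
Mgst1, chr6:138140461-138140489, minus strand: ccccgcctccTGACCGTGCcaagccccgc
Srxn1, chr2:152105542-152105570, minus strand: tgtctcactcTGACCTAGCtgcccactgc
Txnrd1, chr10:82859104-82859132, minus strand: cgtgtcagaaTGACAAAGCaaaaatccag
Gclm, chr3:122245413-122245441, minus strand: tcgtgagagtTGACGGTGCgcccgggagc
Prdx1, chr4:116685456-116685484, minus strand: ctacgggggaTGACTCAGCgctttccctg
Mt1, metal response core, chr8:94179056-94179082, plus strand: ggtcccgctgTGCACACtggcgctcca
Mt1, metal response core, chr8:94179099-94179125, plus strand: gcccgaaaagTGCGCTCggctctgcca
The antioxidant response core was in the windows of 8 of the 42 members, and 12.4% of all 32544 windows in the table held it. Those members were Gclm, Gstm5, Mgst1, Mt2, Prdx1, Sod1, Srxn1 and Txnrd1. The metal response core was in 13 of the 42 members and in 25.9% of all windows. A member was counted when any of its windows held the core, and some members had several windows. The percentages count windows instead of genes, so they are no direct background for the member counts. Whether members held either core more often than other genes was not tested. A match is a description of the letters and not a site of binding.

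Libraries held 14353842 to 25118341 recovered reads. The 16 cardiomyocyte markers were all tested and had a mean log2 level of 12.9 to 14.6 in every library. Saline sham 3, NAC sham 2 and NAC MI 2 stood apart from their groups. Mitochondrial transcripts took 27.7% of the reads in saline sham 3, against 7.65% and 13.6% in the other saline sham libraries. The mean log2 level of 16 macrophage and monocyte markers was 9.07 in NAC sham 2, where no other sham library exceeded 5.88. It was 5.16 in NAC MI 2, where no other MI library was below 8.41. Epicardial markers had a mean of 10.8 in NAC MI 2 and 8.79 to 9.17 in the other MI libraries. Sample titles, except those of NAC sham 1 and 3, carried prefixes of unstated meaning. No prefix held both surgeries, so that prefix and surgery cannot be told apart. After sham surgery, only the prefix of NAC sham 2 and saline sham 1 and 2 held both treatments, and saline sham 3 carried another. Prefix and treatment thus cannot be fully told apart after sham surgery either. No source states that the replicates were separate litters, so p-values measure the spread between libraries, and an exact permutation test of 3 against 3 cannot go below 0.1.

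Many members had their extremes in these libraries. Of the 47, 31 had their highest value among the 6 sham libraries in saline sham 3, as did 27.9% of all genes tested. NAC sham 2 held the lowest of all 12 values for 17 members, and for 17.9% of all genes. The median standard deviation within groups, on the log2 scale, was 0.36 for the members and 0.38 for all genes. Gsr was the steadiest member, at 0.13, and Slc7a11 the most variable, at 0.99.

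**Figure D1:**
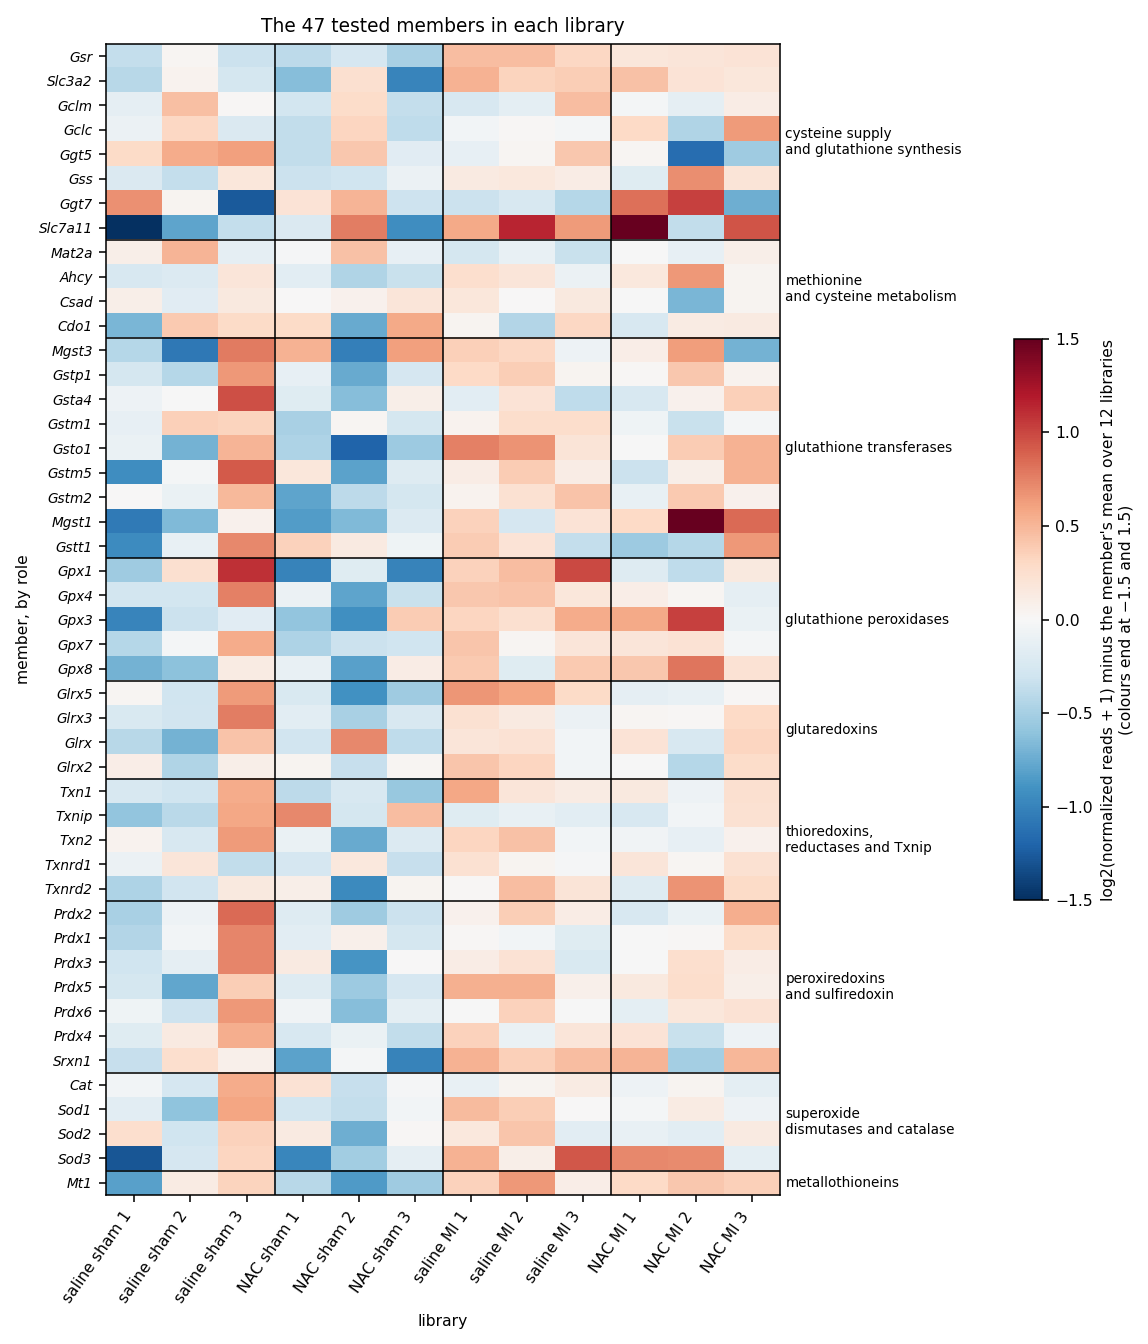
Heat map of the 47 tested members (rows, by role) in the 12 libraries (columns, 3 per group). Colour is log2(normalized reads + 1) minus the member's mean over the 12 libraries: saline sham 3 is red for most members, NAC sham 2 is blue for many, and Gsr is blue or pale in the 6 sham libraries and red in the 6 MI libraries.

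Most of the tested members had higher transcript levels than the median tested gene. Per kilobase of exon, the median member had 388 normalized reads and the median tested gene 67.5, and 39 of the 47 members lay above the latter. Gpx1, the cytosolic peroxidase for hydrogen peroxide, led with 4976 normalized reads per kilobase. It was followed by Gpx4, which reduces lipid peroxides, with 2666, the cytosolic peroxiredoxin Prdx2 with 2052, thioredoxin Txn1 with 1740 and Prdx1 with 1647. The enzymes of synthesis were lower, with 104 for Gclc, 122 for Gclm and 35.8 for Gss. Slc7a11 was the lowest tested member at 2.33 per kilobase, while its partner Slc3a2, which also serves other amino acid transporters, had 271. Cbs and Cth, which carry sulfur from methionine to cysteine, had 110 and 31 reads in all 12 libraries together.

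Infarction compared with sham surgery, averaged over both treatments, gave 2 members that passed the threshold, an adjusted p under 0.05 (limma with Benjamini-Hochberg adjustment over the 14996 genes). These were Gsr and Mgst1, and both rose. Of all genes, 2.74% passed. The other 45 members did not pass, although 39 of 47 had a log2 change above 0, against 49.7% of all genes. The members' median log2 change was 0.25 and that of all genes was -0.0030, and without saline sham 3 they were 0.44 and 0.0083. At an unadjusted p under 0.05, 17 members were higher (10.4% of all genes) and 0 were lower (9.83% of all genes).

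Gsr, glutathione reductase, regenerates glutathione with NADPH and lies at chr8:33652523-33698163 on GRCm38. It had 571, 749 and 588 normalized reads in the saline sham libraries 1 to 3, and 558, 614 and 525 in NAC sham. After MI the values were 1014, 1008 and 907 with saline and 826, 832 and 846 with NAC. All 6 MI libraries lay above all 6 sham libraries, a separation met by no other member and by 1.45% of all genes in this direction. The mean was 906 ± 86.6 after MI and 601 ± 78.6 after sham surgery (SD, n = 6 each), a log2 change of 0.60 (1.51-fold) with an SE of 0.11 and an adjusted p of 0.0149 by limma. The call held in 11 of the 12 fits that left out 1 library, and the adjusted p was 0.0601 without saline MI 1.

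Mgst1 codes for a microsomal glutathione transferase that also reduces lipid peroxides. Normalized reads were 130.5, 172 and 286 in saline sham, 152, 172 and 237 in NAC sham, 347, 229 and 316 in saline MI, and 336, 1048 and 492 in NAC MI. The groups overlapped, since saline sham 3 lay above saline MI 2, and NAC MI 2 was far above every other library. The log2 change was 1.13 (2.18-fold) with an SE of 0.28 and an adjusted p of 0.0475. This call passed in 2 of the 12 fits without 1 library (without saline sham 3 and without NAC MI 1). Without NAC MI 2 the log2 change was 0.90 and the adjusted p 0.0552. That library also had the highest epicardial marker level, and the part of these cells in the value was not tested.

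The count of members that passed depended on single libraries and on the tool. It was 13 without saline sham 3, where 10.4% of all genes passed, and 0 without saline MI 1, where 0.887% did. It was 1 without saline sham 1, saline sham 2, NAC sham 1, saline MI 2 or saline MI 3. Without the 3 libraries that stood apart, an alternative chosen after the data were seen, 16 members passed, all higher, and 14.6% of all genes passed in either direction. Slc3a2 then led with a log2 change of 0.85 (adjusted p 0.00218), followed by Srxn1 with 0.95 (0.00262) and Glrx with 0.64 (0.00649). Gsr and Mgst1 passed in that fit too. Saline sham 3, left out there and in the fit with 13, had the highest sham value for 31 of the 47 members. Leaving it out favours calls of a rise with MI by selection. NAC sham 2, also left out in the fit with 16, held the lowest of the 12 values for 17 members, which works the other way. DESeq2 on the recovered reads called 8 members and 8.12% of all genes, and edgeR called 2, Gsr and Mgst1, and 2.8% of all genes.

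Cysteine supply and synthesis held 8 tested members, of which 7 had a log2 change above 0 with infarction and 1, Gsr, passed. Slc7a11, the cystine carrier, had 2.17, 13.9 and 19.0 normalized reads in saline sham, 21.1, 42.9 and 12.5 in NAC sham, 37.0, 55.7 and 39.0 in saline MI, and 78.8, 18.9 and 48.6 in NAC MI. All saline MI values exceeded all saline sham values, while the NAC groups overlapped, and the lowest value rested on 3 reads. Its log2 change was 1.52 with an SE of 0.51 and an adjusted p of 0.129. Slc3a2 averaged 1161 ± 108 after MI and 753 ± 228 after sham surgery (SD, n = 6 each), with an adjusted p of 0.0668.

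Neither ligase subunit passed. Gclc had 360.3, 473 and 328 normalized reads in saline sham, 296, 478 and 293 in NAC sham, 371, 388 and 375 in saline MI, and 469, 279 and 598 in NAC MI. Gclm, the modifier subunit, had 690.1, 1036 and 768, then 623, 914 and 588, then 639, 683 and 1039, and 743, 688 and 815 in the same order of groups. All 4 groups overlapped for both genes, and the log2 changes with MI were 0.14 (SE 0.20) for Gclc and 0.0070 (SE 0.17) for Gclm. Ggt5, which cleaves glutathione conjugates outside the cell, was the member of this role with a change below 0, at -0.44 (adjusted p 0.249).

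Among the methionine and cysteine enzymes, 4 members were tested and 0 passed. Ahcy, which hydrolyses S-adenosylhomocysteine, had a log2 change of 0.40 with MI (adjusted p 0.152). Mat2a, which makes S-adenosylmethionine, had -0.26, Csad -0.11 and Cdo1 -0.024, the last being an enzyme that oxidises cysteine.

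Glutathione transferases had 7 of 9 members above 0 with infarction. After Mgst1 came Gsto1, an omega-class transferase with glutaredoxin-like activity. Its normalized reads were 668, 435 and 1019 in saline sham, 517, 309 and 487 in NAC sham, 1204, 1138 and 817 in saline MI, and 710.4, 929.7 and 1026 in NAC MI. All NAC MI values lay above all NAC sham values, and in the saline groups only saline sham 3 reached into the MI range. The log2 change was 0.84 (SE 0.21) with an adjusted p of 0.0561, which was 0.0156 without saline sham 3. Gstm1, Gstm2 and Gstm5 are close relatives in a cluster on chromosome 3, and Gstp1 also has near copies, so reads may have been shared between copies and their values are uncertain.

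Glutathione peroxidases had 5 of 5 tested members above 0. Gpx3, the secreted plasma peroxidase, had 1219.9, 1939.9 and 2165 normalized reads in saline sham, 1619, 1289 and 3159 in NAC sham, 3032, 2881 and 3574 in saline MI, and 3605, 4935 and 2269 in NAC MI. The saline groups did not overlap, but NAC sham 3 lay above NAC MI 3. Its log2 change with MI was 0.87 (SE 0.24) with an adjusted p of 0.0744. Gpx8, of the endoplasmic reticulum, had 0.68 (adjusted p 0.103).

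Thioredoxin genes had 4 of 5 members above 0 with infarction and 0 passed. Txnrd1, the cytosolic thioredoxin reductase, had 1328, 1589 and 1092 normalized reads in saline sham, 1181, 1573 and 1106 in NAC sham, 1650.0, 1445 and 1389 in saline MI, and 1596, 1440.0 and 1653 in NAC MI. Its groups overlapped and the log2 change was 0.23 (adjusted p 0.332). The exception was Txnip, which binds and inhibits thioredoxin, at -0.17 (adjusted p 0.701).

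The 4 glutaredoxins were all above 0 and 0 passed, with log2 changes of 0.18 to 0.44. Among 7 peroxiredoxin and sulfiredoxin members, all were above 0 and 0 passed. Srxn1, which repairs overoxidised peroxiredoxins, had 192, 292 and 258 normalized reads in saline sham, 140.3, 240.0 and 122 in NAC sham, 351, 315 and 336 in saline MI, and 348, 172 and 346 in NAC MI. All saline MI values exceeded all saline sham values, and NAC MI 2 fell within the NAC sham range. The adjusted p was 0.154, at a log2 change of 0.61.

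Superoxide dismutases and catalase had 3 of 4 members above 0. Sod3, the extracellular dismutase, averaged 249.7 ± 66.8 after MI and 133 ± 52.6 after sham surgery (SD, n = 6 each), with an adjusted p of 0.0951. Sod2, the mitochondrial dismutase, had 5270.5, 3590.1 and 5637 normalized reads in saline sham, 4881, 2657 and 4481 in NAC sham, 4939.9, 5932 and 3959 in saline MI, and 4108, 3964 and 4873 in NAC MI. These groups overlapped throughout, and the log2 change was 0.095 (SE 0.18). Catalase (Cat) had -0.041.

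Mt1, a metal-binding metallothionein, had 752, 1445 and 1676 normalized reads in saline sham, 991, 735 and 917 in NAC sham, 1685, 2079.9 and 1414 in saline MI, and 1636, 1752 and 1693 in NAC MI. The NAC groups did not overlap, and saline MI 3 lay below saline sham 2 and 3. The log2 change with MI was 0.72 (SE 0.19) with an adjusted p of 0.0595. Its neighbour Mt2 was counted at 0 in 9 libraries and had 3 reads in all. In the annotation 73.5% of the exon bases of Mt2 are shared with the antisense gene Gm45774, and the strand setting of the counting was not given in the sources used here, so its level could not be read from the table. Exons of 11 members in all, among them Prdx5, Txnip and Gclm, overlap those of another gene, and reads there cannot be assigned with certainty.

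**Figure D2:**
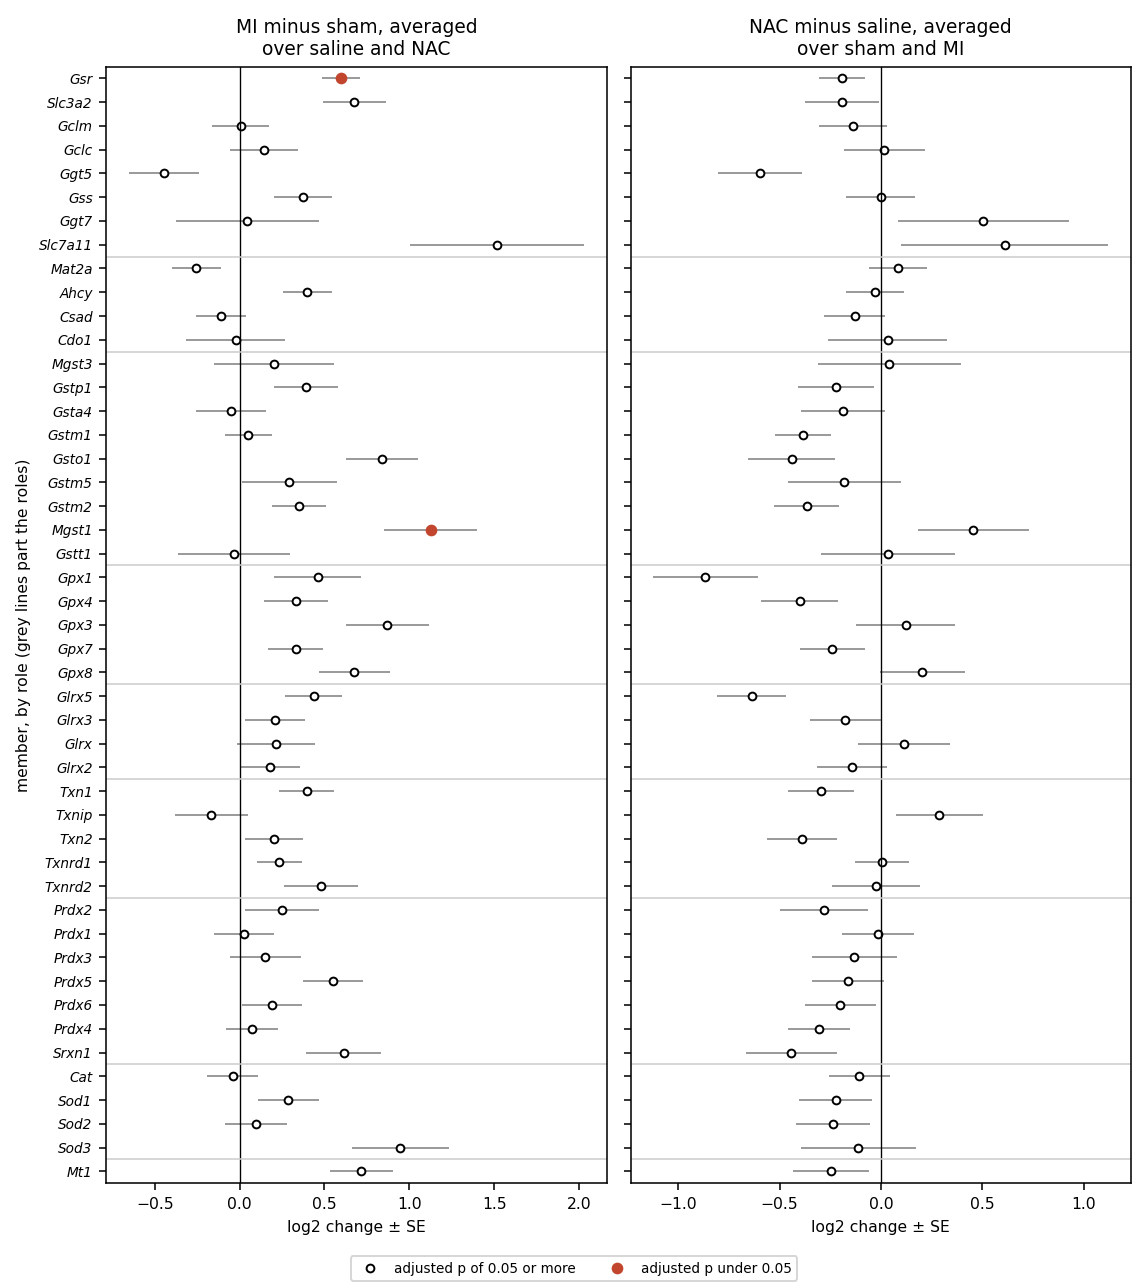
Log2 change (x axis, points with SE bars) of the 47 tested members (y axis, by role) with MI, left, and with NAC, right, each averaged over the other factor; filled points passed an adjusted p of 0.05. Gsr and Mgst1 are the filled points, 39 members lie right of 0 with MI, and 34 lie left of 0 with NAC.

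Members with and without the antioxidant response core had similar medians. The 7 tested members with the core had a median log2 change of 0.29 with MI, and all 7 were above 0. The 33 tested members whose windows lacked the core had a median of 0.33, and 28 were above 0. Of those 7, Mgst1 passed. Gsr had no window in the table. Cores outside the windows were not searched, and control by NRF2 was not tested.

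Markers of other cell types moved with infarction as well, and their part in the members' values was not tested. Averaged over treatments, 16 of 16 macrophage and monocyte markers were above 0, with a median log2 change of 1.83, and so were 11 of 11 tested neutrophil markers, with 2.77. Epicardial markers had 9 of 10 above 0 (median 1.37), fibroblast markers 12 of 12 (median 0.46) and endothelial markers 0 of 12 (median -0.52). Red blood cell markers had 9 of 10 above 0 (median 0.54), cardiomyocyte markers 12 of 16 (median 0.19) and mural cell markers 2 of 9 (median -0.48). Mitochondrial transcripts took 21.7% to 30.2% of the reads after MI and 7.65% to 27.7% after sham surgery. The summed normalized reads of the macrophage list were 841 to 1391 in saline sham and 9876 to 14561 in saline MI, against 1294 to 22608 after sham surgery and 1089 to 12611 after MI in the NAC groups. In bulk RNA, fewer cells of a type and less RNA per cell cannot be told apart.

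Infarction after saline and after NAC was also compared within each treatment, and these comparisons share libraries with the averaged one. After saline, limma called 0 members, against 0.86% of all genes, and DESeq2 called 1 (Gsr; 3.09% of all genes) and edgeR 0 (0.607%). There, 35 of 47 members had a log2 change above 0 (49.1% of all genes), 6 were higher at an unadjusted p under 0.05 (6.87%), and 5 had all MI libraries above all sham libraries (10.4%). Those 5 were Gsr, Slc7a11, Gpx3, Slc3a2 and Srxn1. The smallest adjusted p was 0.106, for Gsr, with a log2 change of 0.63 (976 ± 60.0 against 636 ± 98.3, SD, n = 3 each). The largest log2 change among the members was 2.17, for Slc7a11, with 43.9 ± 10.3 against 11.7 ± 8.64 normalized reads (adjusted p 0.235). Without the 3 libraries that stood apart, 14 members and 12% of all genes passed after saline, and these members included Gsr, Slc7a11, Gpx3 and Prdx5. Leaving out saline sham 3, high for many members, favours such calls by selection.

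After NAC, limma called 0 members, against 0.127% of all genes, while DESeq2 called 3 (Gsr, Mgst1 and Mt1; 1.61% of all genes) and edgeR 0 (0.187%). A log2 change above 0 was found in 39 of 47 members (49.8% of all genes), 12 were higher at an unadjusted p under 0.05 (5.11%), and 13 had all MI libraries above all sham libraries (9.08%). The smallest adjusted p were 0.176 for Mgst1, 0.223 for Mt1 and 0.239 for Gsr. Mt1 had 1693 ± 58.2 after MI and 881 ± 132 after sham surgery (SD, n = 3 each), a log2 change of 0.95. Without NAC sham 2, the sham library with the high macrophage markers, 1 member passed, Slc3a2, and 0.447% of all genes. Without the 3 libraries 3 members and 3.83% of all genes passed, the members being Srxn1, with a log2 change of 1.40, Slc3a2 with 1.12 and Gclc with 0.85.

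**Figure D3:**
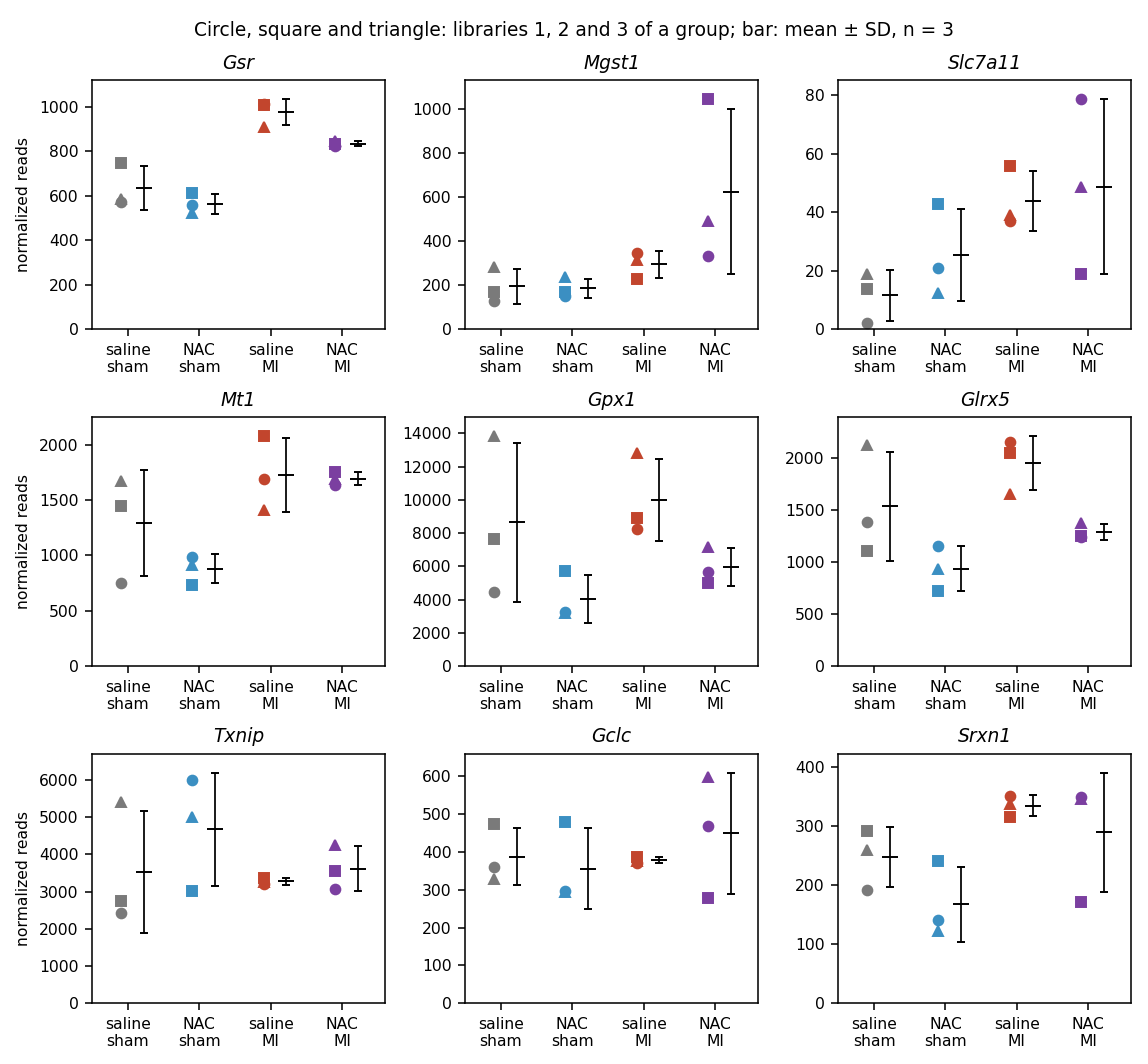
Normalized reads (y axis, from 0) of 9 members in the 4 groups (x axis); symbols are single libraries and bars are the mean ± SD (n = 3). The 6 MI libraries of Gsr lie above its 6 sham libraries, Mgst1 reaches 1048 in NAC MI 2, and the NAC MI libraries of Glrx5 and Gpx1 lie below the saline MI libraries.

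NAC compared with saline, averaged over both surgeries, gave 0 members that passed in limma, as for all genes (0%). edgeR also called 0, and DESeq2 called 2 members, Glrx5 and Gpx1, both lower, and 2.91% of all genes. At an unadjusted p under 0.05, 6 members were lower (7.9% of all genes) and 0 higher (7.62%). A log2 change below 0 was found in 34 of 47 members, against 52.4% of all genes, and the medians were -0.16 and -0.021. The members' median was -0.057 without saline sham 3 and -0.010 without the 3 libraries that stood apart. All 7 peroxiredoxin and sulfiredoxin members and all 4 dismutases and catalase were below 0 in this average. After MI alone, 2 of these 7 were above 0 and 5 below. Prdx1 was higher with NAC within each title prefix, with log2 differences of 0.31, 0.29 and 0.19.

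Glrx5, a mitochondrial glutaredoxin that hands on iron-sulfur clusters, had the smallest p among the members. Its normalized reads were 1387, 1104 and 2121 in saline sham, 1157, 722 and 937 in NAC sham, 2155, 2049 and 1659.6 in saline MI, and 1239, 1254 and 1375 in NAC MI. All NAC MI libraries lay below all saline MI libraries, and the sham groups overlapped in NAC sham 1 and saline sham 2. The log2 change with NAC was -0.64 with an SE of 0.17 and an adjusted p of 0.189. Within title prefixes the log2 difference was -0.78, -0.61 and -0.41, each from 3 libraries.

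Gpx1 had 4489.8, 7637 and 13852 normalized reads in saline sham, 3242, 5732 and 3225 in NAC sham, 8239.9, 8925 and 12827 in saline MI, and 5689, 4995 and 7189 in NAC MI. All 3 NAC MI values were below the saline MI values, and NAC sham 2 lay above saline sham 1. The log2 change was -0.87 (SE 0.26) with an adjusted p of 0.201. Within title prefixes the differences were -0.031, -0.25 and -1.27, the last from the prefix in which saline was a single library.

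Ggt5 had 390.0, 470.3 and 489 normalized reads in saline sham, 246, 422 and 282 in NAC sham, 293, 325 and 422 in saline MI, and 324, 144 and 219.4 in NAC MI. NAC sham 2 lay in the saline sham range and NAC MI 1 in the saline MI range. The log2 change was -0.60 (SE 0.21, adjusted p 0.243).

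The genes of cystine uptake and glutathione synthesis gave no call with NAC. Averaged over surgeries the log2 change was 0.017 (SE 0.20) for Gclc, -0.14 (SE 0.17) for Gclm, -0.00079 (SE 0.17) for Gss and 0.61 (SE 0.51) for Slc7a11. For Txnrd1 it was 0.0057 (SE 0.13). Txnip had 2416, 2745 and 5412 normalized reads in saline sham, 6002, 3012 and 5006 in NAC sham, 3196, 3368 and 3255 in saline MI, and 3062, 3541 and 4253 in NAC MI. Saline sham 3 lay within the NAC sham range and NAC sham 2 near the other saline sham libraries, and the log2 change was 0.29 (adjusted p 0.523). Without the 3 libraries that stood apart the log2 change of Txnip was 0.62 with an adjusted p of 0.0359, and 2.19% of all genes passed. Leaving out saline sham 3 and NAC sham 2 raises this change by selection. Within title prefixes the log2 differences of Txnip were 0.23, 0.37 and 0.017, each from 3 libraries.

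Globin transcripts differed with NAC too. They took 3.71% to 7.05% of the reads in the 6 saline libraries and 1.07% to 2.78% in the 6 NAC libraries, with no overlap. Of the 10 tested red blood cell markers, 1 was above 0, and the list's median log2 change was -0.79. Endothelial markers had 0 of 12 above 0 (median -0.41), epicardial markers 8 of 10 (median 0.35) and neutrophil markers 8 of 11 (median 0.40). Gpx1, Glrx5 and Prdx2 are also known as abundant transcripts of red cell precursors. Gpx1 was highest in saline sham 3 and saline MI 3, whose globin shares of 6.54% and 7.05% were the highest of the 12. In saline sham 3, Prdx2 was also the highest of the 12, with 10863 normalized reads, and Glrx5 the highest of the sham libraries, with 2121. In saline MI 3, Glrx5 had 1660, the lowest of the saline MI group. Prdx2 had 6512 there, below the 8785 of NAC MI 3, where globin took 2.78% of the reads. Prdx2 had a log2 change of -0.28 (adjusted p 0.539). The part of red cell RNA and of the other cell types in these differences was not tested.

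**Figure D4:**
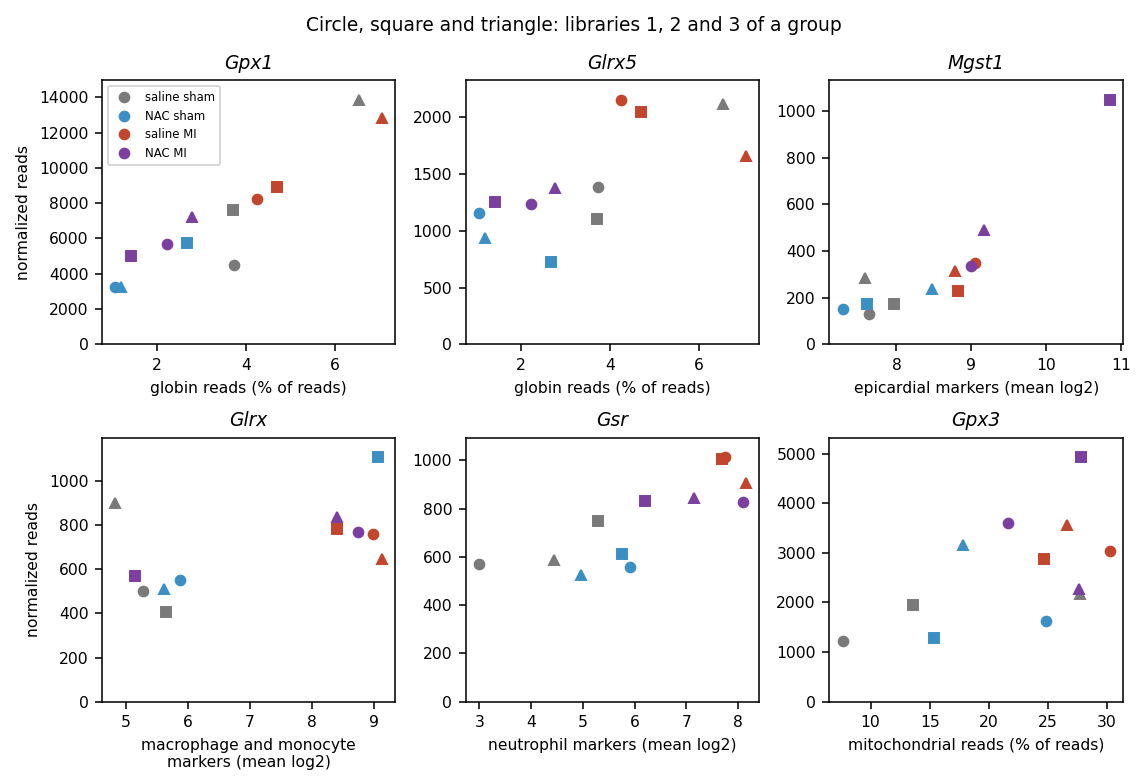
Normalized reads (y axes, from 0) of 6 members against a share of reads or a mean log2 marker level (x axes) in the 12 libraries, coloured by group. Gpx1 is highest in the 2 libraries with the most globin reads, Mgst1 reaches 1048 in the library with the highest epicardial level, and the 6 MI libraries of Gsr have the 6 highest neutrophil levels.

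After sham surgery, NAC gave 0 members that passed in limma, as for all genes (0%). It also gave 0 members in edgeR (0% of all genes) and 0 in DESeq2 (0.353% of all genes). At an unadjusted p under 0.05, 4 members were lower (2.36% of all genes) and 0 higher (3.53%), and 37 of 47 had a log2 change below 0 (51.8%). The median log2 change was -0.23 for the members and -0.016 for all genes. The smallest p were those of Glrx5 (-0.68), Gpx1 (-0.995) and Gstm2 (-0.61), all with an adjusted p of 0.770. Gstm2, a mu-class transferase, had 407, 377 and 570.0 normalized reads in saline sham, 234, 308 and 339 in NAC sham, 421, 474 and 548 in saline MI, and 374, 534 and 424 in NAC MI. It was the 1 member whose NAC sham libraries all lay below the saline sham libraries (4.5% of all genes).

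The members' median after sham surgery stayed below 0 when any 1 library was left out, at -0.36 to -0.093. Without the 3 libraries that stood apart, it was 0.059. Leaving out saline sham 3, high for many members, and NAC sham 2, low for many, raises this median by selection. In this fit 2 members passed, both higher, while 2.79% of all genes passed in either direction. The members were Txnip, with a log2 change of 1.09 (adjusted p 0.0125), and Mgst3, a microsomal transferase, with 1.32 (adjusted p 0.0328). In that fit each sham group held 2 libraries. The saline libraries shared 1 title prefix and the NAC libraries carried none, so treatment and prefix cannot be told apart there. NAC sham 2 against saline sham 1 and 2, within their shared prefix, gave log2 differences of 0.23 for Txnip and -0.28 for Mgst3. With all 12 libraries, 16 of 16 macrophage and monocyte markers were above 0 with NAC after sham surgery (median log2 change 1.70), against 0 of 12 endothelial markers (median -0.37) and 1 of 10 red blood cell markers (median -0.95). Their part in the members' values was not tested.

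After MI, NAC gave 0 members that passed in limma, as for all genes (0%). It also gave 0 members in edgeR (0% of all genes) and 0 in DESeq2 (0.0734% of all genes). At an unadjusted p under 0.05 there were 3 members (9.22% of all genes), and 31 of 47 had a log2 change below 0 (51.9%). The smallest p were those of Glrx5, with a log2 change of -0.59 (1289 ± 74.6 against 1954 ± 261, SD, n = 3 each), Mgst1 with 0.93 and Ggt5 with -0.66. Their adjusted p were 0.529, 0.529 and 0.533. Without NAC MI 2 the log2 changes of Mgst1 and Ggt5 were 0.47 and -0.36. Of the markers, 0 of 16 of the macrophage and monocyte list were above 0 (median -1.38), 1 of 12 endothelial (median -0.49), 1 of 10 red blood cell (median -0.78) and 9 of 10 epicardial (median 0.69), and their part was not tested. In 5 members, Glrx5, Gpx1, Gstm1, Gsr and Gpx4, all NAC MI libraries lay below all saline MI libraries, as for 11.5% of all genes. For Gsr the means were 835 ± 10.2 and 976 ± 60.0 (SD, n = 3 each), with an adjusted p of 0.625.

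Whether NAC altered the response to infarction was tested as the interaction. limma and edgeR called 0 members and 0% of all genes, and DESeq2 called 0 members and 0.00667% of all genes. In limma, 0 members had an unadjusted p under 0.05 (2.03% of all genes). The interaction was above 0 for 35 of 47 members (50.1% of all genes), with a median of 0.16. That median was -0.023 without saline sham 3, -0.118 with library weights and -0.161 without the 3 libraries that stood apart. Gsta4, an alpha-class transferase that clears lipid aldehydes, had the smallest p, with 613, 644 and 1255 normalized reads in saline sham, 567, 413 and 682 in NAC sham, 575, 744 and 496 in saline MI, and 547, 672 and 824 in NAC MI. Its value in saline sham 3 was the highest of the 12. The interaction was 0.71 (SE 0.41) for Gsta4, 0.94 (SE 0.55) for Mgst1 and 0.49 (SE 0.32) for Gstm2, each with an adjusted p of 0.9999.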

How the data were processed

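The deposited values (signal) are gene read counts that the authors divided by 1 size factor per library, as found from the values, and mm10, STAR 2.7.10a and DESeq2 1.44.0 are named in the submitters' processing notes. No gene counter, annotation release or strand setting is given in the sources used here. Multiplied by the library's factor, 100% of the values came within 0.01 of whole reads, 14353842 to 25118341 per library. Identifiers were matched to symbols with a GENCODE annotation of GRCm38.

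Values were tested as log2(value + 1) with limma 3.58.1 in R 4.3.3 (trended prior, 1 model of 4 group means, 8 residual degrees of freedom, two-sided, Benjamini-Hochberg over the 14996 genes with a mean of at least 10); fold changes of low genes are understated on this scale. The fits were tested on simulated data. edgeR 4.0.16 and DESeq2 1.42.0 on the recovered reads, other filters and pseudocounts, library weights and fits leaving out libraries were alternatives. Values in every library are given for members that passed, for the 3 smallest p in each of the 7 comparisons and for 11 members taken in any case. The members and the lists of other pathway genes and of markers (8 cell types) were chosen with earlier results of these data known. A marker level is the mean log2 value of its list.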

Additional observations from a re-analysis of the deposited data

How the results depend on the processing

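With infarction averaged over treatments, 2 members passed. The count was 1 with no filter on low values, 1 with a mean of at least 50, 1 when rescaled without mitochondrial and globin reads, 8 in DESeq2 (8.12% of all genes), 21 with library weights (27.9%) and 16 without the 3 libraries that stood apart (14.6%; chosen after the data were seen), and it ranged from 0 to 13 when 1 library was left out. With infarction after saline the count of 0 became 1 in DESeq2 (3.09% of all genes), 16 with library weights (19.4%) and 14 without the 3 libraries (12%). After NAC it became 3 in DESeq2 (1.61%), 6 with weights (5.37%) and 3 without the 3 libraries (3.83%), and ranged from 0 to 1 over left-out libraries. For NAC against saline the count of 0 became 2 in DESeq2 (2.91%), 4 with weights (13.5%) and 1 without the 3 libraries (2.19%) when averaged over surgeries, 1 with weights (2.81%) and 2 without the 3 libraries (2.79%) after sham surgery, and 1 with weights (4.57%) after MI. The weights were lowest for NAC sham 2 (0.25), saline sham 3 (0.27) and NAC MI 2 (0.45). The interaction gave 0 in every fit run. The cause of these differences was not tested.

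Gsr with infarction kept its sign in all 21 alternatives, with a log2 change of 0.56 to 0.66. The libraries' numbers come from the order of deposit and pair no samples. A block for the title prefix could be fitted for NAC against saline. After MI it called 0 members and 0% of all genes, with a member median of -0.062. Averaged over surgeries it called 0 members and 0.04% of all genes, with a member median of -0.115. The sham part of that average rested on NAC sham 2 against saline sham 1 and 2. Only their prefix held both treatments after sham surgery. Among the tested members, Slc7a11 had the fewest reads in a single library, 3 in saline sham 1. Ggt7 had the lowest mean over the libraries, 23.5 normalized reads, and Slc7a11 had 32.5.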

Other observations

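Genes of the same pathways that are not members numbered 70, of which 57 were tested, and 0 passed in limma in any of the 7 comparisons when all 12 libraries were kept at equal weight. With infarction averaged over treatments, 9 passed without saline sham 3 (10.4% of all genes), 7 without the 3 libraries that stood apart (14.6%), 17 with library weights (27.9%) and 2 in DESeq2 (8.12%). In that comparison, with all libraries, 46 of 57 had a log2 change above 0, with a median of 0.13. Selenos, a selenoprotein of the endoplasmic reticulum, had 446 ± 43.3 normalized reads after MI and 316 ± 56.8 after sham surgery (SD, n = 6 each), and all MI libraries lay above all sham libraries (adjusted p 0.0890). Shmt2, the mitochondrial serine hydroxymethyltransferase, had 1079 ± 131 and 821 ± 93.0 (adjusted p 0.0998).

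With NAC averaged over surgeries, the smallest p among these genes was that of Slc25a39, the mitochondrial carrier of glutathione. It had 2586 ± 432 normalized reads with NAC and 4126 ± 873 with saline (SD, n = 6 each), a log2 change of -0.66 and an adjusted p of 0.172. Its NAC libraries lay below its saline libraries within each surgery. Mpst, a sulfurtransferase that uses a product of cysteine, had -0.62 (adjusted p 0.209). Slc1a1, a carrier of glutamate and cysteine, had 26.9 ± 12.8 with NAC and 11.3 ± 3.46 with saline (adjusted p 0.219). Globin reads were lower in the same NAC libraries, and their part in these values was not tested.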
